A study of Arabidopsis thaliana with 10 samples.

Results

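Control plants of Arabidopsis thaliana that were 21 days old were compared with control plants that were 19 days old, all fed a complete nutrient solution throughout. The comparison takes 4 of the 10 ATH1 arrays of the study, a microarray of short probes in which a probe set stands for a transcript: the arrays titled control at 2 days (19 days old, n = 2) and control at 4 days (21 days old, n = 2). The days count from the moment at which the other plants of the study were moved to a deficient solution, which is dated differently in 2 places of the labels. The other 6 arrays hold plants without boron at 2 and at 4 days and plants without calcium at 2 days, 2 arrays each. All plants grew on perlite with a solution of 25 µM boron and 3 mM calcium before that move, and the control plants stayed on it. RNA came from the whole plant, and the titles call the 2 arrays of a group biological replicates. The labels give no ecotype, no allele and no hour of harvest, so the time of day cannot be told apart from age.

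At this age an Arabidopsis plant is a vegetative rosette that adds leaves, and the transcripts of many of its genes cycle with the circadian clock, light and the sugar state of the leaf. Plants short of carbon, as at the end of a long night, raise genes that break down branched-chain amino acids for respiration. Chloroplasts carry a small genome of their own, read in long transcripts that cover several genes and are cut and trimmed afterwards.

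The deposited signals of the 2 ages lie on different scales. The median signal was 115 and 118 on the 19-day arrays and 243 and 234 on the 21-day arrays. The 21-day signals were 1.89-fold those of 19 days at the 5th percentile, 2.05-fold at the 50th and 1.42-fold at the maximum, so no single factor joins the ages. Age, sampling day and array scaling cannot be told apart, and every difference given here is therefore relative to the other genes of the same arrays, after the 4 arrays were quantile normalized, which gives them 1 common distribution. Replicates had Spearman correlations of 0.969 at 19 days and 0.993 at 21 days, against 0.922 to 0.927 between ages. The SD of the log2 difference over probe sets was 0.396 between the 19-day arrays, 0.194 between the 21-day arrays and 0.656 to 0.685 between ages. With n = 2 per group, the number of arrays limits the precision.

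Transcript levels differed between the ages well beyond the replicate spread for many genes. Of 22746 probe sets 4724 passed an adjusted p of 0.05 in limma (20.8%), 2643 higher at 21 days (11.6%) and 2081 lower (9.15%). A difference is given as 21 days minus 19 days of log2(signal + 16), with its moderated standard error (SE), and a fold is 2 to the power of it, which understates the change of dim genes. At least 2-fold differences were called for 1125 probe sets in the higher and 861 in the lower direction. The median of all differences was -0.02, and the 5th and 95th percentiles were -0.88 and 1.01. Among the 13355 genes that had at least 1 own probe set, 1334 were called higher and 1196 lower. Both 21-day arrays lay above both 19-day arrays for 7106 probe sets (31.2%) and below both for 7331 (32.2%), which is the background for every statement here that the ages did not overlap. A lower value in whole plants can mean fewer cells that hold a transcript or less of it per cell, and these cannot be told apart.

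The balance of the directions depends on the scaling. Of the 4724 calls 55.9% were higher. On the values as deposited 97.2% of 18328 calls were higher, with all differences shifted by a median of 0.79. With the arrays brought to a common median only, 40.8% of 6330 calls were higher, at a median shift of -0.15. Leaving out a replicate also moved the counts, to 8592 calls without the first and 9441 without the second 19-day array, and to 1243 without the first and 1125 without the second 21-day array. Each of these fits has a single array at one age and takes the spread of that age from the pair of the other, with 1 residual degree of freedom. The 19-day pair is the wider (SD 0.396 against 0.194). A call that is lost without a 21-day array was thus measured against the wider spread alone. Its loss does not show whether the difference was stable. The 146 called genes named here kept their sign in all 4 such fits. The log2 difference stayed within 1.5 times for 145 of 146 in each fit. The exceptions were LHCB4.2 (0.69 without the first 19-day array), CML38 (-1.25 without the second 19-day array), UF3GT (0.6 without the first 21-day array) and OSM34 (-1.32 without the second 21-day array). A call asks for a small replicate spread, and many genes were named only where the ages did not overlap. Sign and size in these fits were thus largely fixed in advance and are no test of stability.

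The same 2 ages were also compared in plants without boron. Those 4 arrays share no plant with the control arrays, but they share the sampling days and their scaling. The older of these plants had also been longer without boron, which cannot be told apart from their age. There 4271 probe sets were called (18.8%), 2344 higher (10.3%) and 1927 lower (8.47%). Of the probe sets called higher, 1548 were shared, which is 58.6% of the control calls and 66% of the calls without boron. Of those called lower, 1177 were shared, 56.6% and 61.1%. Opposite calls were made for 4 probe sets higher in control plants and for 2 lower in them. The values of both regimes are set side by side below, and a difference between them is stated only from the test of that difference (without boron minus control), which 2 of 22746 probe sets passed (0.00879%), neither of them with a gene name.

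**Figure D1:**
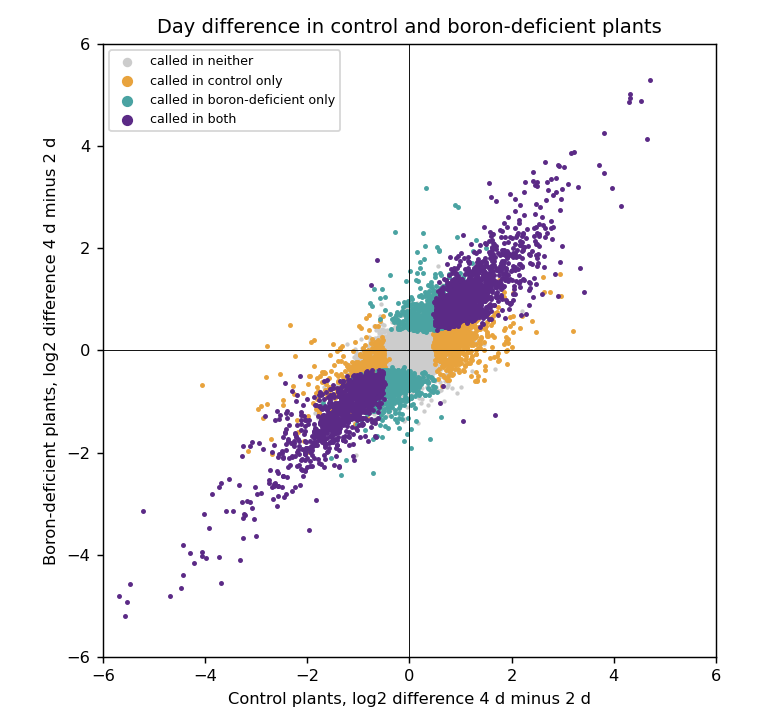
Difference between 4 d (21 days) and 2 d (19 days) for each of 22746 probe sets, control plants on the horizontal and boron-deficient plants on the vertical axis, both as log2 differences. Points are coloured by where they passed an adjusted p of 0.05, and 1548 probe sets were called higher and 1177 lower in both.

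Among genes with a symbol, the most lowered was COR27, and clock and cold genes fell with it. COR27, a cold-regulated gene that feeds back on the circadian clock and on freezing tolerance, had normalized signals of 2519 and 2356 at 19 days and of 40.2 and 37.7 at 21 days. It went from a bright transcript, above 96.3% of the probe sets of its array, to a dim one, above 10% of them, and was 44.6-fold lower (log2 difference -5.48, SE 0.13, adjusted p = 0.000253). In plants without boron the difference was -4.58. CCL, a clock-controlled gene, measured 10281 and 9679 at 19 days and 983 and 990.0 at 21 days. All 4 arrays kept it in the bright range, and it was 9.97-fold lower (log2 difference -3.32, SE 0.12, adjusted p = 0.000405), with -4.11 without boron. GI, the clock protein GIGANTEA that links day length to flowering, measured 770.4 and 1174 against 418 and 330.5. The ages did not overlap, and the fall of GI was 2.49-fold (log2 difference -1.32, SE 0.24, adjusted p = 0.0156), with -1.25 without boron. CCL and GI are the 2 members of the clock list that have a named probe set of their own, so the other clock genes are not analysed here.

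Of the 18 genes of the cold list 4 were measured, with a named probe set of their own. All 4 fell, by a median of 1.12 on the log2 scale, and all 4 were also called lower without boron. Of all probe sets 9.15% were called lower in control plants and 8.47% without boron. COR47, a dehydrin that protects membranes and proteins in the cold, measured 1972 and 1490.3 at 19 days and 644 and 636 at 21 days (log2 difference -1.40, SE 0.17, adjusted p = 0.00503). LTI30, another dehydrin, measured 252 and 466 against 124 and 80.6, with the wider spread at 19 days (-1.63, SE 0.32, adjusted p = 0.0205). COR15A and COR15B, which stabilise chloroplast membranes, were dimmer and fell by 0.84 and 0.49. Of the 4 calls 1 remained on the values as deposited. Against the wider spread, 2 remained without the first and 1 without the second 21-day array: COR15A had -0.86 and -0.75 (adjusted p of 0.123 and 0.177), COR15B -0.48 and -0.47 (0.377 and 0.393), LTI30 -1.34 without the second (0.107), and GI likewise -1.17 (0.0982).

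Several of the most lowered loci carry no name in the annotation used here. AT4G33980 measured 2187 and 2664 at 19 days and 32.8 and 29.9 at 21 days, a 51.3-fold fall (log2 difference -5.68, SE 0.16, adjusted p = 0.000315). AT1G56300 fell 46.4-fold, from 3278 and 3598 to 57.9 and 58.7. AT1G19530 fell 37.3-fold, from 3016 and 3797 to 86.4 and 65. These 3 loci and COR27 were bright on both 19-day arrays, and on the 21-day arrays they were far below that, AT1G19530 less so, above 31.3% and 22.8% of the probe sets. The next in size were AT3G62550 (-4.69), AT5G62360 (-4.48), AT1G07050 (-4.44), AT2G21130 (-4.21) and AT4G32340 (-4.06), with differences of -4.82, -4.65, -4.40, -4.17 and -3.94 without boron.

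Among the lowered genes with a symbol were enzymes of several pathways. BGLU46, a beta-glucosidase that acts on monolignol glucosides, measured 1238 and 1458 at 19 days and 122 and 64.9 at 21 days (log2 difference -3.68, SE 0.27, adjusted p = 0.00146). PDC2, a pyruvate decarboxylase of fermentation, measured 1142 and 1535 against 208 and 176 (-2.69, SE 0.19). CCOAMT, a caffeoyl-CoA methyltransferase of the lignin pathway, measured 1859 and 2586 against 469.9 and 245 (-2.63, SE 0.32). These 3 genes were taken from those whose ages do not overlap, and the gap between their ages was wide. Fes1B, related to a nucleotide exchange factor of HSP70 chaperones, fell by 2.47, OBE1, a PHD-finger protein needed in meristems, by 2.26, and PIFI, a chloroplast protein that acts on electron flow after illumination, by 2.02. OSM34, an osmotin-like protein, measured 2339 and 1946 against 855 and 241, so its 21-day arrays stood far apart (-2.18, SE 0.54, adjusted p = 0.0394), and its call was lost on the values as deposited (adjusted p = 0.0568) and on ranks within the array (0.167).

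**Figure D2:**
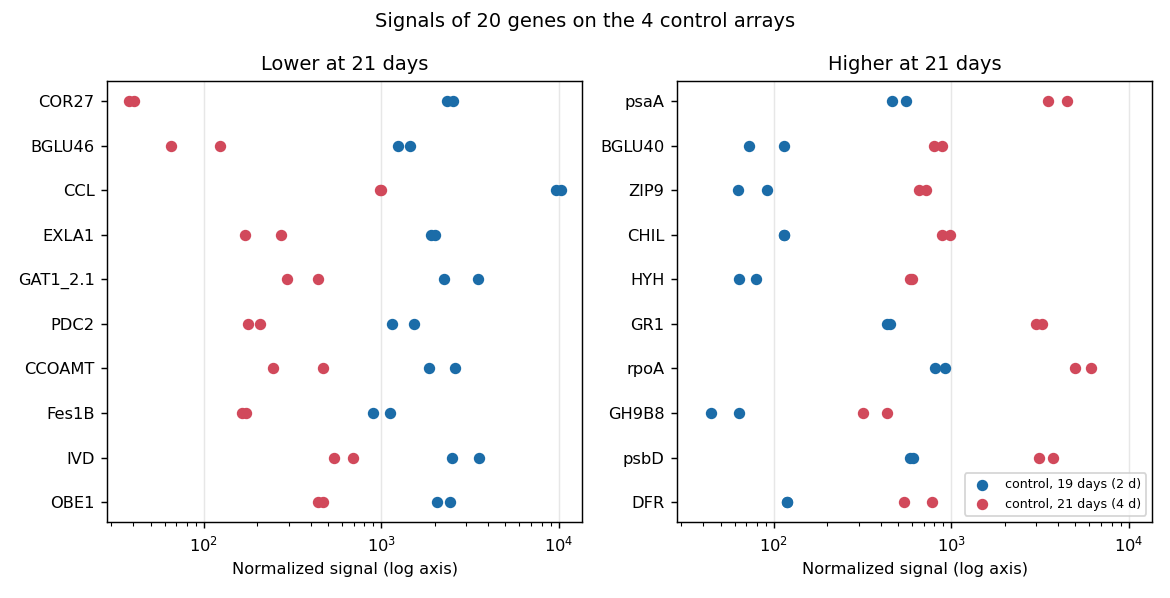
Normalized signals of 20 genes on the 4 control arrays, on a log axis, with 2 points per age: 10 genes lower at 21 days on the left and 10 higher on the right. The 20 genes were taken from called genes whose 2 ages do not overlap, and COR27 spans the widest range, from 2519 to 37.7.

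Genes of amino acid breakdown and of starvation fell together in the control plants. All 7 measured genes of the list of starvation and darkness were called lower (median log2 difference -1.62). So were 7 of 8 in the list of branched-chain amino acid breakdown (median -1.59), against 8.91% of all probe sets with a single named gene. The lists hold 33 and 14 genes, and those without a named probe set of their own were not examined. IVD, MCCA and MCCB stand in both lists. Like the other lists used here, both were chosen with earlier results of these data known. The shares thus describe the measured genes and are no independent test of the pathways. Without boron 1 of the 7 and 3 of the 8 were called lower, with medians of -0.57 and -0.72. No member of either list passed the test of the difference between the regimes.

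IVD, the isovaleryl-CoA dehydrogenase of leucine breakdown, measured 2499 and 3539 at 19 days and 689.7 and 538 at 21 days (log2 difference -2.26, SE 0.22, adjusted p = 0.00278). MCCB, a subunit of methylcrotonyl-CoA carboxylase, the next enzyme of that route, measured 1658 and 2204 against 514 and 511 (-1.87, SE 0.17, adjusted p = 0.00254). MCCA, the other subunit, measured 2229 and 4298 against 1018 and 870.5 (-1.70, SE 0.31, adjusted p = 0.0162). For these 3 genes the 19-day arrays differed among themselves, the second being the higher. Both lay above both 21-day arrays, as for 32.2% of all probe sets. The differences without boron were -0.85 for IVD, -0.45 for MCCA and -0.91 for MCCB, the last of which was called.

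The electron carriers that take up the electrons of this route were measured too. ETFQO, the oxidoreductase that passes them to ubiquinone, measured 872 and 1443 at 19 days and 434 and 351 at 21 days (log2 difference -1.49, SE 0.26, adjusted p = 0.0146). ETFBETA, a subunit of the electron transfer flavoprotein, measured 425 and 454 against 271 and 244 (-0.74, SE 0.14, adjusted p = 0.0175). ETFALPHA, the other subunit, measured 470.1 and 372 against 296 and 315 and was not called (-0.43, SE 0.16, adjusted p = 0.118), although its ages did not overlap. D2HGDH, a hydroxyglutarate dehydrogenase that feeds the same carriers, fell by 0.80 from 418 and 429.6 to 231 and 241. ALDH6B2, which oxidises methylmalonate semialdehyde when valine is broken down, went from 2441 and 3770.1 to 887 and 805 (-1.82, SE 0.22, adjusted p = 0.00503).

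Of the other starvation genes, ATL8, a RING-type ubiquitin ligase, measured 973 and 1221 at 19 days and 338 and 351 at 21 days (log2 difference -1.62, SE 0.16, adjusted p = 0.00291). EXO, exordium, a protein of leaf growth that responds to brassinosteroids, measured 6579.6 and 4112 against 2156 and 1911 (-1.35, SE 0.24, adjusted p = 0.0144). AKINBETA1, a regulatory subunit of the energy-sensing kinase SnRK1, fell by 1.1, and BZIP53, a transcription factor of amino acid metabolism, by 0.82. Without boron their differences were -0.77, 0.03, -0.57 and -0.30. MGL, which is outside both lists, is the methionine gamma-lyase that opens a route from methionine to isoleucine. It measured 1557 and 2142 against 499 and 485 (-1.86, SE 0.18, adjusted p = 0.00291). Without boron MGL measured a difference of 0.21. The difference between the regimes, 2.05, had an unadjusted p of 0.000232 and an adjusted p of 0.126 and so did not pass. GAT1_2.1, a glutamine amidotransferase-like gene also outside both lists, measured 2257 and 3486 against 438 and 294 (-2.91, SE 0.27, adjusted p = 0.00259), with -1.08 without boron.

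Without a 21-day array, with the spread of the 19-day pair alone, the differences stayed close to those above and some lost their call. Of the 7 starvation calls 5 remained without the first and 3 without the second 21-day array, and of the 7 breakdown calls likewise 5 and 3. Without the second the difference was -1.6 for MCCA (adjusted p = 0.0712), -1.35 for ETFQO (0.0807), -1.27 for EXO (0.0783), -1.16 for AKINBETA1 (0.0755), -0.71 for BZIP53 (0.176), -0.83 for D2HGDH (0.132) and -0.67 for ETFBETA (0.219). Without the first it was -1.07 for AKINBETA1 (adjusted p = 0.0841), -0.96 for BZIP53 (0.0801), -0.77 for D2HGDH (0.151) and -0.8 for ETFBETA (0.138). On the values as deposited 4 and 3 of the calls remained, which the shift of all genes lowers by its construction.

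**Figure D3:**
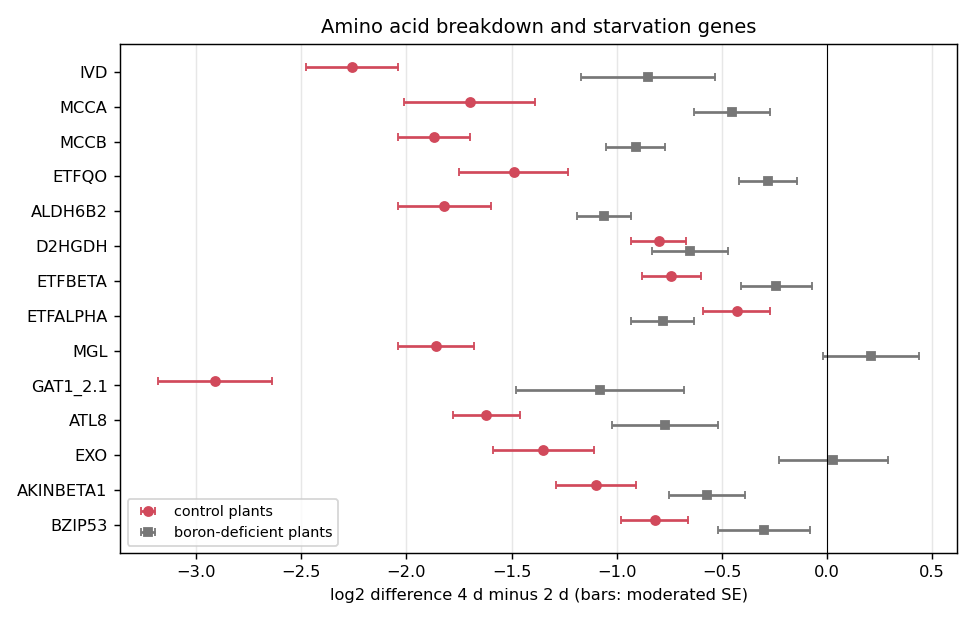
Log2 difference between 4 d (21 days) and 2 d (19 days) for 14 genes, in control plants (circles) and boron-deficient plants (squares), with bars of 1 moderated SE. They are the measured genes of the breakdown and starvation lists, with MGL and GAT1_2.1 from the synthesis and nitrogen lists. All 14 control values lie below 0, from -2.91 for GAT1_2.1 to -0.43 for ETFALPHA. The other measured genes of the synthesis and nitrogen lists, AT3G58610 and NRT2.5, are not drawn and rose by 0.84 and 0.82. Without boron MGL and EXO lie at 0.21 and 0.03.

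Synthesis of the same amino acids was covered by 2 genes, 1 called higher and 1 lower. AT3G58610, the member called higher, measured 3202 and 2889 at 19 days and 5395 and 5500.2 at 21 days (log2 difference 0.84, SE 0.12, adjusted p = 0.00872). The member called lower was MGL. BCAT4, an aminotransferase of methionine chain elongation in glucosinolate synthesis, measured 843 and 795 against 1397 and 966 and was not called (0.50, SE 0.20, adjusted p = 0.141). Without the first and the second 21-day array AT3G58610 had 0.87 and 0.83, and its call was lost (adjusted p of 0.0848 and 0.103).

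Genes of the plastid genome moved apart from one another. Of 69 measured, 25 were called higher and 6 lower, against 1302 and 1186 of 13216 nuclear genes, and the median log2 difference was 0.33, against -0.05 for the nuclear genes. The values of the 2 ages overlapped for 13 of the 69, against 5005 of the 13216 nuclear genes. Without boron 33 were called higher and 4 lower, and 22 and 4 were called in both regimes. The probe sets are those of single genes, while plastid genes are transcribed jointly, so the values of neighbours do not count as independent.

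The genes for the RNA polymerase that the plastid encodes were higher. The gene rpoA, for its alpha subunit, measured 813 and 918 at 19 days and 6105 and 5002 at 21 days (log2 difference 2.65, SE 0.16, adjusted p = 0.00102). Of the other subunits rpoC2 rose by 1.61 and rpoC1 by 0.58, while rpoB had a difference of 0.67 with an adjusted p of 0.054. Genes of the large ribosomal subunit had a median of 1.1, with 4 of 7 called higher, against 11.6% of all probe sets. They were rpl36 (2.4), rpl22 (1.54), rpl14 (1.19) and rpl16 (1.1). Genes of the small subunit were split, with rps2 (2.43), rps14 (0.71) and rps3 (0.58) called higher and rps15 (-1.50) and rps19 (-0.51) called lower among 8. The 2 ends of this range are rps2, at 1153 and 1251 against 6860.0 and 6251, and rps15, at 1505 and 1237 against 547 and 406.

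Photosystem genes showed both the highest and the lowest differences of the plastid genome. The gene psaA, for a core protein of photosystem I, measured 465 and 552 at 19 days and 4517 and 3513 at 21 days (log2 difference 2.94, SE 0.18, adjusted p = 0.00104). Its neighbour psaB, the partner in the same reaction centre, measured 13419 and 12595 against 14399.7 and 13419, which overlap (0.10, SE 0.11, adjusted p = 0.587). In photosystem II psbD, for the reaction centre protein D2, measured 584 and 606 against 3727 and 3102 (2.48, SE 0.15, adjusted p = 0.00103), and psbC, for the antenna protein CP43 beside it, rose by 1.86. The small subunits psbK and psbI went the other way: psbI measured 5572 and 5468 against 1073 and 1246 (-2.24, SE 0.14, adjusted p = 0.00104), and psbK fell by 1.8. The gene psbA, for the D1 protein that turns over fast in light, measured 5581 and 5082 against 4933 and 3539 and was not called (-0.35, SE 0.19, adjusted p = 0.243).

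Smaller differences were called for psbZ (0.83), psbH (0.75), psbB (0.63) and psbT (0.63), and psbN, on the other strand of the same cluster, was called lower (-0.57). In the cytochrome b6f complex petA (1.11) and petD (0.52) were higher and petG was lower, from 820.0 and 839.6 to 215 and 220.2 (-1.86, SE 0.13, adjusted p = 0.00134), while petB, beside petD, had 0.23. None of the 6 ATP synthase genes was called: rps2 (2.43) stands next to atpI (0.11), atpH (0.31), atpF (0.25) and atpA (-0.89), and atpA measured 4039 and 9043 on the 21-day arrays. Without boron atpI, atpH and atpF were called higher (0.81, 1.06 and 1.04), differences from the control plants that did not pass. Of the genes of the NDH complex, which returns electrons to the plastoquinone pool, 2 of 10 were called, ndhH (1.86) and ndhG (1.81). That is near the 20.8% of all probe sets that were called. The gene rbcL, for the large subunit of the carbon-fixing enzyme Rubisco, measured 1275 and 1361 against 4904 and 3628 (1.67, SE 0.18, adjusted p = 0.00336). The genes cemA (1.84) and ycf4 (1.63), the latter for an assembly factor of photosystem I, were higher too, and so was psaC (0.88), for the iron-sulfur protein of photosystem I.

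Of the 31 plastid calls 18 remained without the first and 20 without the second 21-day array, both against the spread of the 19-day pair alone, 22 on percentile ranks within the array and 24 with the replicate number as a block. Those lost without the first array had differences of 1.02 for rpl14, 0.84 for rpl16, 0.8 for psaC and psbZ, 0.48 for psbB and petD, 0.67 for psbH and rps14, 0.6 for psbT, -0.55 for psbN, 0.46 for rpoC1, 0.66 for rps3 and -0.49 for rps19, with an adjusted p from 0.0756 (rpl14) to 0.372 (psbB). Those lost without the second had 0.99 for psaC, 0.9 for psbZ, 0.8 for psbB, 0.55 for petD, 0.86 for psbH, 0.74 for rps14, 0.67 for psbT, -0.59 for psbN, 0.72 for rpoC1, 0.52 for rps3 and -0.55 for rps19, with an adjusted p from 0.0797 (psbZ) to 0.308 (petD).

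**Figure D4:**
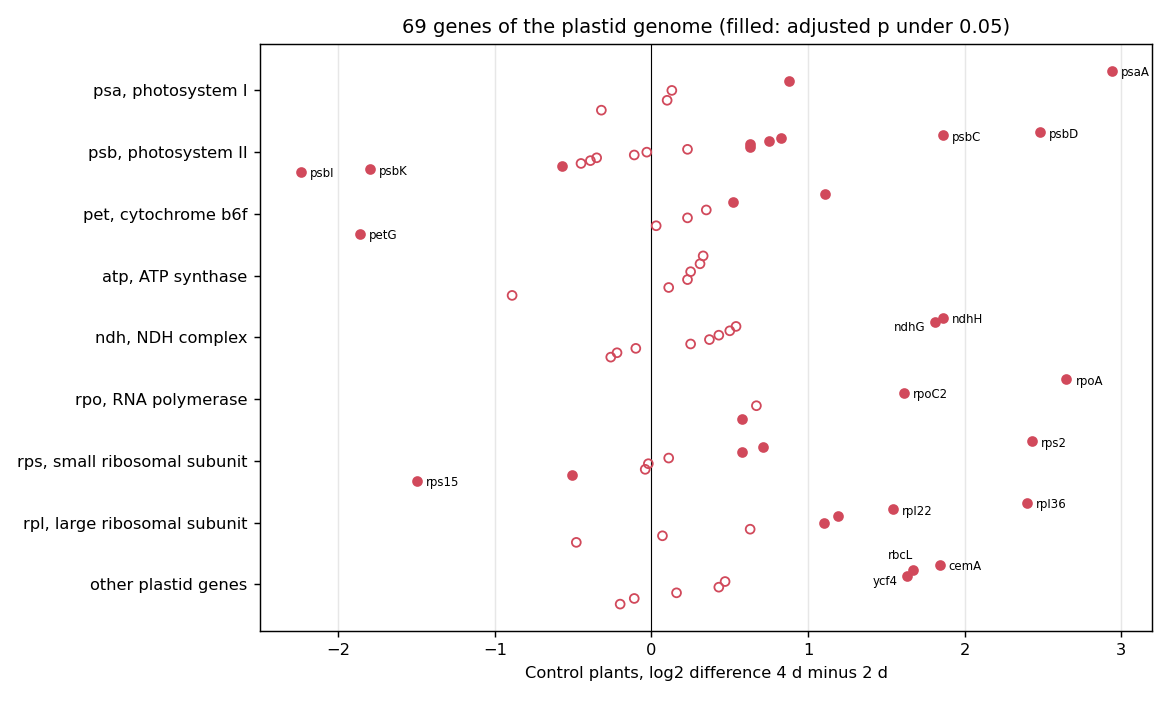
Log2 difference between 4 d (21 days) and 2 d (19 days) in control plants for the 69 measured genes of the plastid genome, grouped by the complex they encode, 1 point per gene. Filled points passed an adjusted p of 0.05; they run from -2.24 for psbI to 2.94 for psaA, and within most complexes called and uncalled genes stand side by side.

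Nuclear genes of photosynthesis were called in both lists examined. Of 7 measured nuclear genes of photosystems and light harvesting, 2 were called higher and 0 lower, where 11.6% of all probe sets were called higher and 9.15% lower, and the median was -0.09. LHCB4.2, an antenna protein of photosystem II, measured 3149 and 5819.5 at 19 days and 9679 and 9338 at 21 days (log2 difference 1.15, SE 0.28, adjusted p = 0.0394), and LHCB4.3, of the same family, rose by 0.89. LHCB4.1, also of that family, was brighter and not called, at 13130 and 14482 against 11229 and 11779 (-0.26, adjusted p = 0.169). The others, not called either, were PSAE-1 (-0.46), PSAN (-0.38), PSBW (-0.09) and PSBY (0.34). Of 12 genes of carbon metabolism 3 were called higher and 1 lower (33.3%, against 20.8% of all probe sets). SBPASE, sedoheptulose-bisphosphatase of the Calvin cycle, measured 4607 and 4321 against 7842 and 6955 (0.72, SE 0.13, adjusted p = 0.0143). Rubisco activase and phosphoribulokinase, of the same cycle, were not called. RCA had 0.38 (adjusted p = 0.0637), with the same normalized signal of 19763 on both 21-day arrays. PRK had 0.06 (adjusted p = 0.752).

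Starch and sugar genes were split. APL3, a large subunit of the enzyme that makes ADP-glucose for starch, measured 114 and 81.5 at 19 days and 300.5 and 318 at 21 days (log2 difference 1.53, SE 0.18, adjusted p = 0.00446). DPE1, a plastid glucanotransferase of starch breakdown, measured 500.4 and 519.9 against 110.0 and 132 (-1.95, SE 0.15, adjusted p = 0.0015). SWEET17, a fructose carrier of the vacuole, rose by 0.81. The ages did not overlap for these 3 genes, which were named because they were called. The differences without boron were 0.69, -2.26 and -0.15. Without the first and without the second 21-day array SWEET17 had 0.82 and 0.82 (adjusted p of 0.142 and 0.151), SBPASE 0.65 and 0.83 (0.161 and 0.0889), LHCB4.2 1.13 and 1.2 (0.143 and 0.131), and LHCB4.3 0.73 and 1.08 (0.166 and 0.0636).

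Some genes of light response and most of the measured flavonoid genes rose. Of 2 measured genes of light signalling 1 was called, HYH, a close relative of the light-response factor HY5. It measured 79.4 and 63.5 at 19 days and 604 and 588 at 21 days (log2 difference 2.81, SE 0.15, adjusted p = 0.000836), with 3.04 without boron. Of 6 measured genes of anthocyanins and flavonols, in a list of 27, 4 were called higher and 0 lower, in both regimes. Of all probe sets 11.6% and 10.3% were called higher. The median of the measured genes in control plants was 1.3. DFR, the reductase at the entry to anthocyanins, measured 118 and 118 against 780.1 and 543 (2.32, SE 0.20, adjusted p = 0.00198). UGT78D1, which adds rhamnose to flavonols, measured 226 and 196 against 1030.3 and 835 (2.06, SE 0.16, adjusted p = 0.00181). UGT78D2, which adds glucose to flavonoids, rose by 1.69, and UF3GT, a sugar transferase of anthocyanins, by 0.91. CHIL, a chalcone isomerase-like protein that assists the first steps and is outside the list, measured 114 and 114 against 988 and 892 (2.88, SE 0.14, adjusted p = 0.000662). Without the first 21-day array UF3GT had 0.6 and lost its call (adjusted p = 0.262).

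UGT78D1, UGT78D2 and UF3GT belong to the larger family of UDP-glucosyltransferases and are counted in it again. Of this family 45 were measured, with 11 called higher, 4 lower (33.3%, against 20.8% of all probe sets) and a median of 0.10. In both regimes 10 were called higher and 4 lower. IAGLU, which conjugates the auxin indole-3-acetic acid, measured 98.1 and 123 at 19 days and 584 and 417 at 21 days (log2 difference 2.01, SE 0.21, adjusted p = 0.00313). GT72B1 rose by 1.68 and UGT74D1 by 1.49, while UGT73C2 and UGT85A5 fell by 1.87 and 1.7. UGT73C2 measured 83.1 and 89.1 against 13 and 10.9, the dimmest level among the glucosyltransferases named here. Of the 15 calls in the family 7 remained without the first and 8 without the second 21-day array. Of 6 genes of lignin and phenylpropanoids 1 was called higher and 1 lower (33.3%). HCT, a shikimate hydroxycinnamoyltransferase, measured 839 and 1000.3 against 2308 and 2530.0 (1.38, SE 0.15, adjusted p = 0.00348), and CCOAMT, given above, fell.

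Single wall genes changed in either direction, at a share of calls near that of all probe sets for the 2 largest families. Of 19 expansins, proteins that loosen walls, 3 were called higher and 1 lower (21.1%, median 0.01), and of 10 xyloglucan endotransglucosylases, which cut and rejoin wall xyloglucan, 1 was called higher and 1 lower (20%, median -0.12), where 20.8% of all probe sets were called. EXLA1, expansin-like, measured 1893 and 2007 at 19 days and 171 and 272 at 21 days (log2 difference -3.08, SE 0.22, adjusted p = 0.00145). EXPA4 measured 159 and 150.5 against 619.6 and 612 (1.89, SE 0.13, adjusted p = 0.00134), and EXPB3 and EXPA15 rose by 1.97 and 1.23. Without boron EXPA4 had 0.26, and the difference between the regimes, -1.61, had an unadjusted p of 4.63e-05 and an adjusted p of 0.0717. Without the second 21-day array EXPA15 had 1.22 and missed the threshold (adjusted p = 0.0515).

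XTH32 measured 215 and 189.7 at 19 days and 766 and 885 at 21 days (log2 difference 1.94, SE 0.15, adjusted p = 0.00161), and XTH20 measured 113 and 122 against 29.8 and 27.3 (-1.58, SE 0.14, adjusted p = 0.0021). GH9B8, an endoglucanase that cuts glucans of the wall, measured 63.2 and 44.1 against 434 and 317 (2.49, SE 0.21, adjusted p = 0.00206). None of these 3 genes had overlapping ages, which is no further support, since they were named because they were called. Of 4 pectin enzymes (median 0.37) 2 were called (50%, against 20.8% of all probe sets). PMEPCRF rose by 1.87 and PME61 fell by 0.65, both being pectin methylesterases. Of 5 tubulins (median 0.47), the building blocks of microtubules that guide cellulose deposition, 1 was called higher and 1 lower (40%). TUB7 rose by 0.98 and TUB5 fell by 1.31, from 1258 and 1236 to 493 and 496. With the first or the second 21-day array left out PME61 had -0.68 and -0.61 (adjusted p of 0.198 and 0.259) and TUB7 1.05 and 0.92 (0.0905 and 0.14).

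The auxin and flowering genes that were called were all higher, while 4 of 10 and 2 of 5 measured genes lay below 0. The nearest to a call among the latter were IAA18 (-0.60, adjusted p = 0.0511) and, for flowering, AGL42 (-0.46, adjusted p = 0.0898). Of 10 auxin response genes 3 were called higher and 0 lower (30%, median 0.10), where 11.6% of all probe sets were called higher. IAA29 and IAA31, repressors of auxin response, rose by 1.34 and 1.32, and WES1, an enzyme that conjugates auxin to amino acids, rose by 0.90. IAA31 was dim, at 9.58 and 14.7 against 48.6 and 60. Without the second 21-day array, against the spread of the 19-day pair alone, IAA29 had 1.11 (adjusted p = 0.0605), IAA31 1.16 (0.0847) and WES1 0.68 (0.196). Of 5 flowering genes 2 were called higher (40%), both floral repressors of the AP2 kind: SNZ measured 113 and 108 against 229 and 231 (log2 difference 0.96, SE 0.13, adjusted p = 0.00664), and SMZ 164 and 166 against 237 and 246 (0.51, SE 0.13, adjusted p = 0.0423). With the first or the second 21-day array left out SNZ had 0.96 and 0.93 (adjusted p of 0.0865 and 0.0972) and SMZ 0.54 and 0.47 (0.312 and 0.391).

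Stress and hormone genes of other kinds fell or rose singly. Of 5 genes of the boron and calcium list 3 were called lower (60%, against 9.15% of all probe sets, median -0.75): CML38 measured 653 and 1760.1 at 19 days and 298 and 234 at 21 days, CML41 905 and 505 against 230.3 and 153, and CML42 503 and 695 against 359 and 334. All 3 encode calmodulin-like calcium sensors, and their log2 differences were -1.96, -1.76 and -0.75. The 19-day arrays stood wide apart for CML38 and CML41. Both lay above both 21-day arrays, as for 32.2% of all probe sets. Without the second 21-day array the differences were -1.81 for CML38 (adjusted p = 0.119), -1.49 for CML41 (0.0759) and -0.7 for CML42 (0.263), and without the first -2.14 for CML38 (0.0705) and -0.79 for CML42 (0.194). Of 4 jasmonate and wounding genes 1 was called higher and 1 lower (50%, against 20.8% of all probe sets). JMT, the methyltransferase that makes methyl jasmonate, measured 35.5 and 29.6 against 167 and 147 (1.83, SE 0.15, adjusted p = 0.00186). OPCL1, a ligase of jasmonate synthesis, fell by 1.01, with -0.97 and -1.06 without the first and the second 21-day array, where its call was lost.

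Leaf senescence genes had a median of -0.32 over 11 genes, with 0 called higher and 3 lower (27.3%, where 9.15% of all probe sets were called lower). ATG8B (-0.77) and ATG8H (-0.62) encode autophagy proteins, and NOL (-0.52) a chlorophyll b reductase. Leaving out the first or the second 21-day array gave ATG8B -0.95 and -0.59 (adjusted p of 0.089 and 0.278), ATG8H -0.68 and -0.54 (0.223 and 0.358) and NOL -0.53 and -0.5 (0.327 and 0.371), and none was called lower on the values as deposited. Of 5 genes for cell division (median 0.05) 1 was called (20%, against 20.8% of all probe sets). It was PRL, the replication licensing factor PROLIFERA, at 84.8 and 90.1 against 385 and 335 (log2 difference 1.86, SE 0.14, adjusted p = 0.00155), with 0.40 without boron. HIS1-3, a linker histone known from drought responses, was the 1 called gene of 5 histones (20%), at 155 and 102 against 19.2 and 23.1 (-1.94, SE 0.21, adjusted p = 0.00357), with 0.17 without boron. For PRL and HIS1-3 the difference between the regimes did not pass (adjusted p of 0.138 and 0.383).

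A glutathione gene, GR1, and a gene of metal transport, ZIP9, were among the most raised genes with a symbol. GR1, a glutathione reductase, measured 432 and 448 at 19 days and 3234 and 2998 at 21 days (log2 difference 2.78, SE 0.13, adjusted p = 0.000655), with 2.4 without boron. Of 12 glutathione transferases, which attach glutathione to reactive compounds, 3 were called higher and 0 lower (25%, against 20.8% of all probe sets): GSTU20 (1.75), GSTU27 (0.84) and GSTU16 (0.77). Without the first and the second 21-day array GSTU27 had 0.8 and 0.9 (adjusted p of 0.191 and 0.15) and GSTU16 0.64 and 0.9 (0.221 and 0.106). GSTU20 had a difference of -0.19 without boron, with an adjusted p of 0.149 for the difference between the regimes. ZIP9, of the zinc and iron transporter family, measured 91.0 and 62.4 against 656 and 724 (2.95, SE 0.19, adjusted p = 0.0012), with 1.72 without boron. BHLH101, a factor induced by iron shortage, had 0.71, and of the related factors bHLH115 (0.96) and bHLH34 (0.68) were called higher and bHLH104 (-0.64) and bHLH121 (-0.62) lower. PYE (0.13) and AT3G13610 (0.05), the other measured genes of the iron and zinc list, were not called. Without the first and the second 21-day array BHLH101 had 0.91 and 0.49, bHLH115 0.87 and 1.06, bHLH34 0.59 and 0.73, bHLH104 -0.74 and -0.56 and bHLH121 -0.56 and -0.7, with an adjusted p from 0.0771 (bHLH115) to 0.409 (BHLH101).

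A pair of hydrolase families were measured in larger numbers. Of 22 beta-glucosidases 4 were called higher and 3 lower (31.8%, against 20.8% of all probe sets). BGLU40 measured 114 and 72.5 at 19 days and 887 and 794 at 21 days (log2 difference 2.99, SE 0.21, adjusted p = 0.00142), while BGLU44 and BGLU16 fell by 1.66 and 1.28, besides BGLU46. BGLU47 (1) and BGLU25 (0.62) were called higher. Without the first and the second 21-day array BGLU47 had 1 and 0.94 (adjusted p of 0.0905 and 0.114) and BGLU25 0.64 and 0.61 (0.232 and 0.267). Of 29 serine carboxypeptidase-like proteins 5 were called higher and 3 lower (27.6%), led by scpl46 (1.77), at 388 and 356 against 1277 and 1329, and SCPL49 (-1.59), at 2067 and 1942 against 653 and 656. Of the 8 calls 2 remained without the first and 2 without the second 21-day array. The others named here were scpl29 (1.17), SCPL45 (0.94), SCPL34 (-0.71) and scpl31 (-0.54), with 1.18, 0.96, -0.61 and -0.48 without the first array (adjusted p of 0.0538, 0.0839, 0.305 and 0.376) and 1.17, 0.91, -0.8 and -0.56 without the second (0.0591, 0.103, 0.189 and 0.303). Of 24 cytochromes P450 1 was called lower, CYP71B26 (-2.10), and 1 higher, CYP71B27 (1), which is 8.3% of the family. For CYP71B27, leaving out the first or the second 21-day array gave 0.93 and 1.01 (adjusted p of 0.108 and 0.093).

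Among the rising loci with no name here the largest was AT1G64500, at 133 and 168 against 3523 and 3029.7 (log2 difference 4.31, SE 0.17, adjusted p = 0.000526), with 4.86 without boron. AT1G73600 measured 144 and 90.6 against 1616 and 1184 (3.42, SE 0.25, adjusted p = 0.00146), with 1.14 without boron and an adjusted p of 0.143 for the difference between the regimes. AT1G20380 rose by 3.33, AT2G41250 by 3.3, AT5G42760 by 2.99 and AT1G43140 by 2.95. AT1G43140 started at 6.90 and 7.44, above 0.426% of the probe sets of its array, and reached 179.7 and 148. AT1G20380 differed between its 19-day arrays, at 428 and 159.

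**Figure D5:**
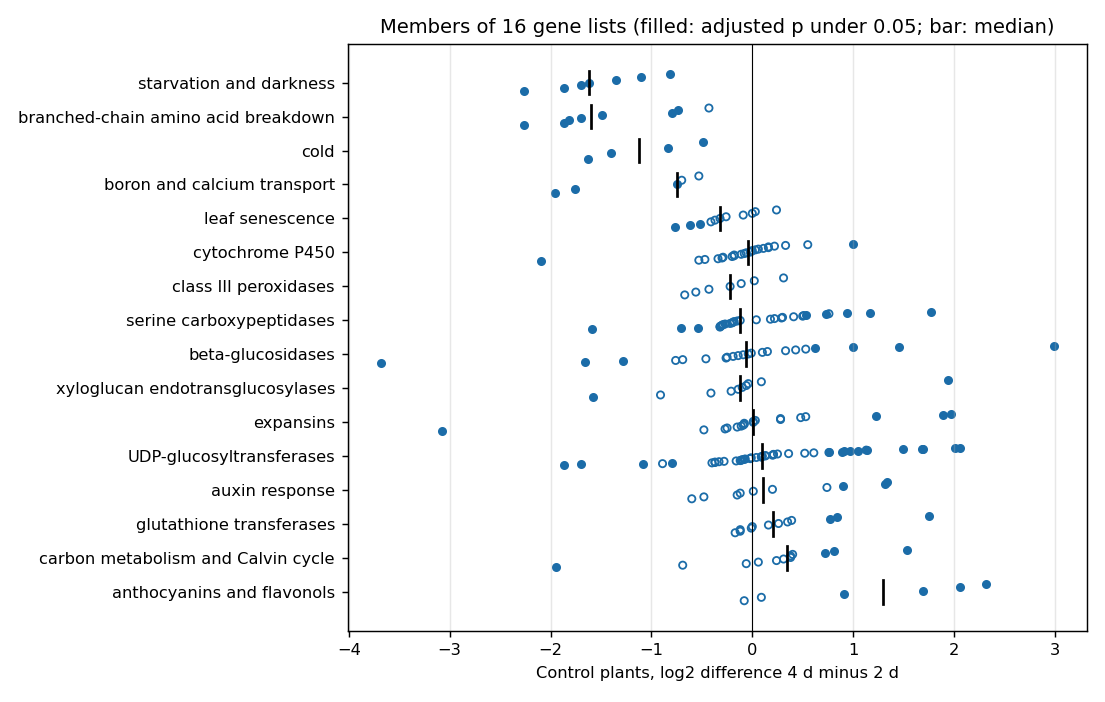
Log2 difference between 4 d (21 days) and 2 d (19 days) in control plants for the measured members of 16 gene lists, 1 point per gene, with a bar at each list's median. Filled points passed an adjusted p of 0.05: all 7 measured starvation genes are filled and below 0, from -2.26 to -0.82, while the expansins have calls on both sides of a median of 0.01.

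Of 7 class III peroxidases, 4 subtilases and 3 genes of phosphate and sulfate 0 were called, where 20.8% of all probe sets were. Of 7 late embryogenesis proteins AT1G54410 was called, at 8685 and 7688 against 3104 and 3045 (log2 difference -1.41, SE 0.13, adjusted p = 0.00221). In other short lists 1 or 2 genes were called. Of 7 WRKY factors WRKY47 (0.82) was called, of 3 chaperones Hsp70-2 (1.08), and of 5 glucosinolate genes GSTU20, given above, and AOP3 (-0.99), for a side-chain enzyme. NRT2.5, a nitrate transporter of nitrogen-starved plants, rose by 0.82, in a list of 2 whose other member is GAT1_2.1. Without the second 21-day array the differences were 0.55 for WRKY47 (adjusted p = 0.327), -0.95 for AOP3 (0.169), 0.8 for NRT2.5 (0.146) and 1.01 for Hsp70-2 (0.0715). Without the first they were 1.1 for WRKY47 (0.062), -0.97 for AOP3 (0.155) and 0.8 for NRT2.5 (0.145), and WRKY47 had 0.71 without the first 19-day array (0.0512).

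The tissue label, whole plant, was checked against markers. Of the root markers 3 were measured: PYK10, a beta-glucosidase of root and seedling endoplasmic reticulum bodies, was well expressed on all 4 arrays and rose, from 1559.8 and 1901 to 4591 and 4848 (log2 difference 1.45, SE 0.15, adjusted p = 0.00307). The root-hair expansins EXPA7 (86.7 and 85 against 85.5 and 76) and EXPA18 (115 and 78.6 against 104 and 88.6) were dim and overlapped between the ages. The leaf marker RCA was among the brightest on each array. Of the markers of flower, guard cell, seed and vascular tissue 1, 1, 0 and 0 were measured and none was called. The summed markers thus rest on few genes, and the part of tissue proportions in any value above was not tested.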

How the data were processed

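The authors deposited 1 value table of the series with signal intensities of 22746 probe sets on a linear scale for 10 arrays, for which the submitters' processing notes name GCOS 1.4. Neither a scaling target nor a later normalization is stated in the labels used here. Per the labels, RNA was extracted from whole plants on columns and biotin-labelled.

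From these values the 4 control arrays were quantile normalized together, and so were the 4 boron-deficient arrays. Values were taken as log2(signal + 16). The ages were compared over all probe sets with limma 3.58.1 in R 4.3.3 (lmFit, then eBayes with an intensity trend, 2 residual and 3.8 median prior degrees of freedom), with Benjamini-Hochberg adjustment at 0.05 over all 22746. The difference between the regimes was an interaction term over 8 arrays normalized together. Every adjusted p in the text is from these limma fits or, where a setting is named, from the same fit under that setting. Alternatives covered normalization, pseudocount, filter, variance model, replicate block and leaving out arrays. The fit was tested on simulated data. Tables were handled in Python 3.11.15, and matplotlib 3.10.9 made the plots.

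The name table lists 14016 probe sets, 13513 with 1 gene and 503 with several, and 13436 of the former were found in RefSeq's TAIR10.1 gene table. The remaining 8730 probe sets entered every test but stay unnamed. For a gene with several own probe sets (147 genes, in 58 of which the signs differ), the one with the highest mean was used. No sequences or coordinates are used here.

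The members, gene lists and tests were chosen with earlier results of these data known. The text names the most raised and lowered genes past the threshold whose ages do not overlap, from the 15 of each direction, up to 4 called members of a list, and IVD, MCCA, MCCB, MGL, BCAT4 and ETFQO. A further 15 of each direction with a symbol other than the locus, and the other plastid, starvation, breakdown and family members named, were chosen after their values were seen. The lists of thionins and defensins and of extensins are left out, since their search words caught methionine enzymes and splicing factors; the one for cytosolic ribosomal proteins caught plastid genes, which are given with the plastid genome. Same-numbered control arrays deviated with a correlation of -0.2, and the numbers were not taken as pairs.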

Additional observations from a re-analysis of the deposited data

Results flagged for a closer look

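The difference between 21 and 19 days differed between the feeding regimes for 2 of 22746 probe sets (0.00879%) in limma's interaction test. At an unadjusted p of 0.05 there were 2112. Neither of the 2 has a gene name in the tables used here. Without boron, age goes together with the time since boron was withdrawn. Probe set 266841_at had normalized signals of 336 and 294 in control plants of 19 days and of 214 and 182 at 21 days, a log2 difference of -0.63 (adjusted p = 0.038). Without boron it measured 96.3 and 90.7 at 19 days and 358 and 353 at 21 days, 1.76 higher on the log2 scale (adjusted p = 0.000618). The arrays without boron were thus lowest at 19 days and highest at 21 days, and the difference of the differences was 2.39 (95% confidence interval 1.95 to 2.82, adjusted p = 0.0234).

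Probe set 260248_at measured 579 and 517 in control plants of 19 days and 467 and 430 at 21 days, which was not called (-0.28, adjusted p = 0.221). Without boron it went from 146 and 194 to 969 and 851 (2.32, adjusted p = 0.000848). The difference of the differences was 2.62 (95% confidence interval 2.09 to 3.14, adjusted p = 0.0264).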

How the results depend on the processing

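Leaving out an array could hardly turn a call, as stated above. The 146 calls among the 160 genes named kept their direction under all alternatives but the values as deposited, which raise all differences by a median of 0.79. There 120 were kept, 12 lost and 14 turned. As deposited the differences were 0.21 for ATG8B and CML42, 0.35 for ATG8H, 0.41 for COR15B, 0.18 for D2HGDH, 0.24 for ETFBETA, 0.46 for NOL, 0.31 for PME61, 0.27 for SCPL34, 0.25 for bHLH104, 0.32 for bHLH121 and scpl31, 0.40 for psbN and 0.20 for rps19, and of the uncalled genes 0.54 for ETFALPHA, 0.69 for EXPA7 and 0.36 for psbA. With median centring the uncalled EXPA18, PRK, petB and psaB stood at -0.13, -0.21, -0.16 and -0.37. Leaving out an array, EXPA18 ran from -0.23 to 0.25, PRK from -0.01 to 0.15 and atpI from -0.07 to 0.28. The cause was not tested. The named calls kept were 141 with median centring, 121 on percentile ranks, 94 without the first and 86 without the second 21-day array, and at least 144 under the other settings, apart from the replicate block (128) and the filter, which left 139 of them in the test and kept all.

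In control plants 4724 probe sets were called, 2643 higher and 2081 lower. As deposited 18328 were called, 17814 higher and 514 lower. With median centring 3746 were lower, and with all 10 arrays in the fit 7019 were called, 3327 lower. Leaving out an array gave 1125 to 9441 calls, 607 to 4682 higher and 518 to 4759 lower. In these fits 1 age has a single array and takes its spread from the pair of the other age. With the replicate number as a block, which does not pair the samples here, 3818 were called, and with crossed pairing 6405. Without boron 3390 were lower with median centring, and leaving out an array gave 1178 to 5234 calls, 714 to 2683 higher and 464 to 2553 lower. The difference between the regimes had 5 calls with a pseudocount of 64, 10 with a filter at the 25th percentile of mean signal, 0 with the replicate block and 0 to 50 when an array was left out. By signal, of 4 equal groups of probe sets the dimmest had 351 calls higher and 185 lower and the brightest 895 and 798, and a fixed pseudocount shrinks differences of the dim ones.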
